A study of Macaca mulatta with 30 samples.

Results

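The cadherin and protocadherin genes of rhesus macaque cortex were followed across 3 regions and both hemispheres. Members were all genes with a probe set of 1 annotated symbol that read CDH and a number or began with PCDH, each represented by its brightest probe set over the arrays. There were 35 such genes among 15534 genes with a single-symbol probe set: 20 classical and other cadherins, 9 non-clustered protocadherins and 6 clustered protocadherins (PCDHAC2 and 5 PCDHB genes). CDH2, which encodes N-cadherin, was not analysed here.

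The 30 Affymetrix arrays came from frozen cortex of 5 rhesus macaques (Macaca mulatta) taken after death, and each animal gave 3 regions from each hemisphere. The regions were ventrolateral prefrontal cortex by the arcuate sulcus (VFC), posterior superior temporal cortex (STC) and the forelimb field of primary motor cortex (M1C). Each of the 6 region and hemisphere groups held 5 arrays, 1 per animal. Animals 1, 2 and 3 were female and 7.3, 5.5 and 8.6 years old, and animals 4 and 5 were male and 4.2 and 2 years old, so that sex and age go with the animal and were not tested. No treatment and no altered genotype was labelled for any animal. The tissue was whole cortex, with no sorting of cells. Of 50 marker genes of cortical cell types, 40 had a named probe set and 39 of these read above the limit for testing.

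Cadherins are adhesion molecules of the cell surface that bind through repeated extracellular domains in the presence of calcium. Classical cadherins (type I and type II) link to the actin cytoskeleton through catenins and help neurons sort, grow and form synapses with matching partners. Non-clustered protocadherins, among them the delta-1 and delta-2 groups, take part in axon growth and synapse formation, whereas clustered protocadherins are chosen in different combinations by individual neurons through their promoters, which gives each cell its own surface identity.

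Values are log2 intensities, on which a difference of 1 is a 2-fold change. Levels of different genes were not set against each other, because probe sets differ in brightness. Genes were tested where the mean over the arrays was above 6.04 on the log2 scale, the 40th percentile of all probe sets. Of the members, 28 passed: 16 cadherins, 8 non-clustered and 4 clustered protocadherins. The other 7 were CDH1 (E-cadherin of epithelia), CDH15 (M-cadherin of muscle), CDH17 (of intestine and liver), CDH23 (of the hair cell tip link), PCDH12 (of endothelium), PCDHAC2 and PCDHB1. Their means lay between 4.96 for CDH17 and 5.87 for CDH23, while the dimmest tested member, CDH16, averaged 6.55. The filter used the mean over all arrays and no region or hemisphere label.

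For 2 arrays the animal named in the label did not match the values. When the group mean was taken off each array, 28 of 30 arrays were closest, over the tested probe sets, to the other arrays of their own animal. The exceptions were M1C left of animal 3, whose mean correlation was -0.059 with the arrays of its own animal and 0.085 with animal 4, and STC right of animal 4, with 0.087 for its own animal and 0.20 for animal 3. EIF1AY, a gene of the Y chromosome, read 8.34 on the array labelled M1C left of animal 3, a female, and 7.25 on the array labelled STC right of animal 4, a male. Male 5 had EIF1AY between 8.30 and 8.53 on all 6 arrays, and females 1 and 2 between 6.83 and 7.70 on their 12. Against the mean region profiles of the other animals, the array labelled M1C left of animal 3 was nearest to VFC (0.25, against -0.26 for M1C), and the array labelled STC right of animal 4 was nearest to M1C (0.35, against -0.19 for STC). By region, 25 of 30 arrays were nearest to their labelled region; besides these 2, VFC right of animal 1 was nearest to STC (0.15, against 0.043 for VFC), and STC left and STC right of animal 1 were nearest to VFC (0.27 against 0.14 for STC, and 0.144 against 0.143). All 3 were nearest to their own animal, and they enter every comparison with STC or VFC. M1C left of animal 3 and STC right of animal 4 are called the 2 doubtful arrays. Counts of members that passed are given with all arrays and without them, as are the values of some genes. Values with no such remark hold all arrays, the doubtful ones included. Where the count of members that passed a region comparison changes, it is also given without 4 arrays, which leaves out STC right of animal 3 (EIF1AY at 7.87) and VFC left of animal 4 (EIF1AY at 8.29) as well, and without animal 1.

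More members passed in VFC minus M1C than in the other region comparisons. In VFC minus M1C, 10 of 28 tested members passed limma's test (8 higher, 2 lower), while percent called over all 11443 tested genes was 13 (6.15 higher and 6.85 lower). Delta-2 protocadherins were higher in VFC in 4 of 5 members, type II cadherins split with CDH8 and CDH10 higher and CDH19 and CDH20 lower, and none of 4 clustered protocadherins passed. The median difference of the 28 members was 0.092, against -0.0031 over all tested genes. In 6 members the 5 animals' VFC values did not overlap their M1C values, which held for 5.86 percent of all tested genes. Samples are bulk tissue, in which fewer cells of a type and less RNA per cell cannot be told apart.

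**Figure D1:**
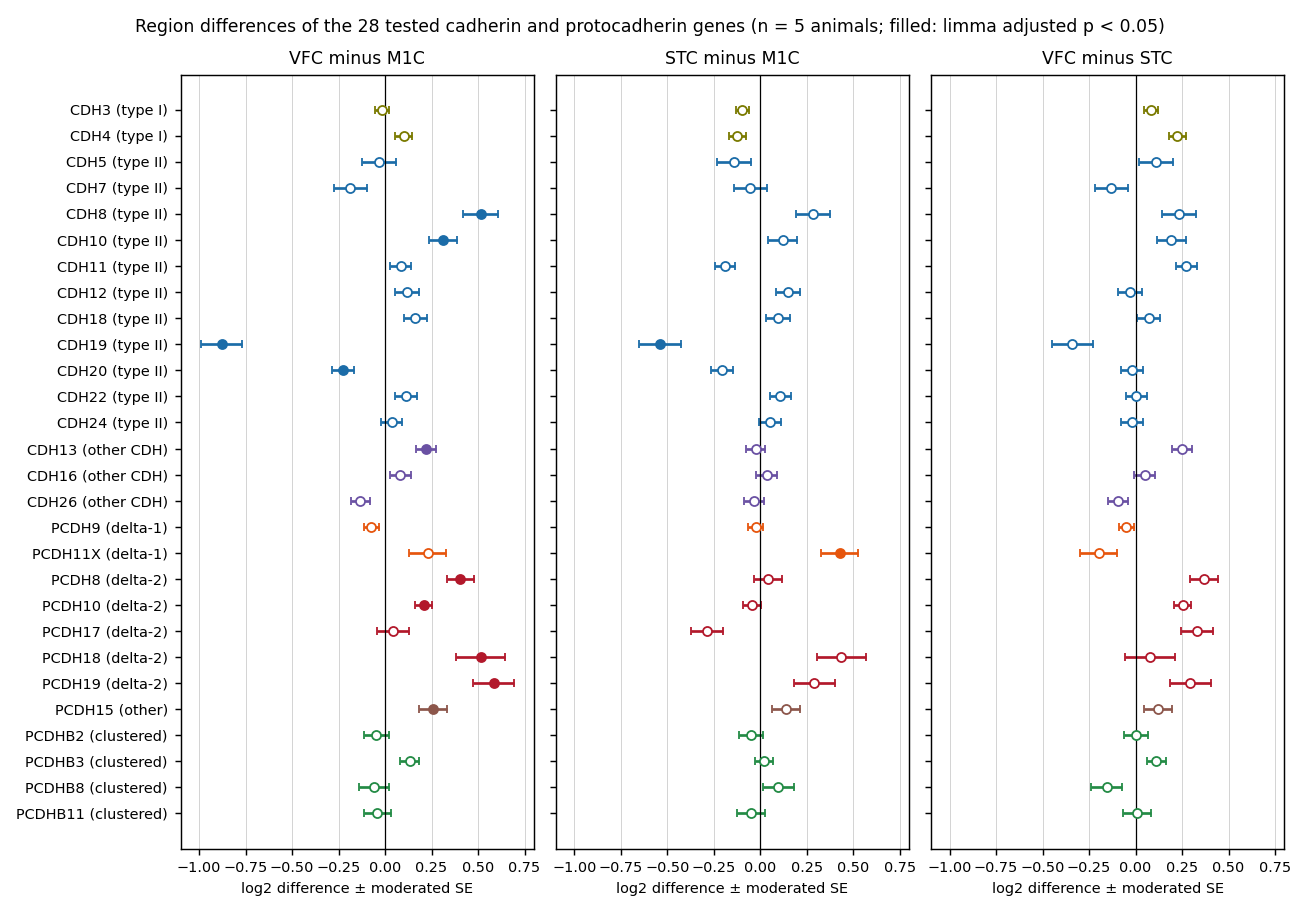
Log2 difference between regions for each of the 28 tested genes, with the moderated standard error from limma over 5 animals, grouped by subfamily; filled points passed an adjusted p of 0.05. CDH19 lies farthest to the left in VFC minus M1C at -0.88, and 4 of 5 delta-2 protocadherins are filled to the right of 0.

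PCDH19, a delta-2 protocadherin on the X chromosome whose human gene is mutated in an epilepsy that mainly affects girls, had the largest rise. It read 8.73, 9.10, 8.55, 8.84 and 8.91 in VFC of animals 1 to 5, against 8.35, 8.05, 8.50, 8.02 and 8.31 in M1C. Every VFC value exceeded every M1C value, though the gap in animal 3 was only 0.052. The log2 difference was 0.58 ± 0.11 (moderated SE, n = 5 animals, limma adjusted p = 0.00693). On the array labelled M1C left of animal 3, PCDH19 read 8.92, while M1C right of the same animal read 8.08, and without the 2 arrays the difference was 0.67 ± 0.085.

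PCDH8, whose rat counterpart arcadlin is induced by neuronal activity, read 7.88, 8.19, 8.05, 8.18 and 8.13 in VFC of animals 1 to 5, against 7.67, 7.50, 7.85, 7.59 and 7.80 in M1C. The regions did not overlap, and the log2 difference was 0.41 ± 0.075 (limma adjusted p = 0.00658). PCDH10, which binds an actin regulator of the WAVE complex, read 9.46, 9.45, 9.53, 9.53 and 9.57 in VFC, against 9.21, 9.36, 9.31, 9.34 and 9.28 in M1C. Its difference was small, 0.21 ± 0.046 (limma adjusted p = 0.0141), and again no value overlapped. PCDH18 read 7.15, 7.83, 7.30, 7.57 and 7.18 in VFC, against 6.91, 6.65, 7.12, 6.79 and 6.99 in M1C. Its difference of 0.51 ± 0.13 (limma adjusted p = 0.0291) was uneven among animals, and animals 2 and 4 had the widest gaps. PCDH17, which shapes synapses of corticobasal circuits in mice, stood apart from the other delta-2 genes: it read 9.06, 9.29, 9.23, 8.99 and 9.37 in VFC, against 9.08, 9.39, 9.03, 9.20 and 9.03 in M1C. The values overlapped widely and the difference was 0.042 ± 0.086 (limma adjusted p = 0.814).

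PCDH15, which forms the hair cell tip link together with CDH23, read 7.07, 7.41, 7.07, 7.20 and 7.38 in VFC of animals 1 to 5, against 6.80, 6.82, 7.10, 6.97 and 7.16 in M1C. It was higher in VFC in 4 of 5 animals, by 0.26 ± 0.075 (limma adjusted p = 0.0470), and was the member closest to the threshold among those that passed. The delta-1 protocadherins did not pass: PCDH11X, an X-linked gene with a Y-linked copy in humans, gave 0.23 ± 0.099 (limma adjusted p = 0.178), and PCDH9 gave -0.073 ± 0.040 (limma adjusted p = 0.297). The PCDH9 value was below 0 in 5 of 5 animals.

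Among type II cadherins, CDH8 read 9.61, 10.06, 9.57, 9.72 and 9.95 in VFC of animals 1 to 5, against 9.31, 9.23, 9.33, 8.95 and 9.52 in M1C. No value overlapped, and the log2 difference was 0.51 ± 0.091 (1.43-fold, limma adjusted p = 0.00558). CDH10 read 9.64, 10.07, 9.59, 9.81 and 10.03 in VFC, against 9.43, 9.49, 9.55, 9.39 and 9.72 in M1C. It was higher in VFC in each animal, by 0.31 ± 0.077 (limma adjusted p = 0.0231), although the regions overlapped through the high M1C value of animal 5. CDH13, which is not of type II, is the T-cadherin that is held in the membrane by a lipid anchor and has no cytoplasmic tail. It read 10.83, 11.10, 11.01, 10.96 and 11.19 in VFC, against 10.76, 10.78, 10.74, 10.75 and 10.96 in M1C. The difference was 0.22 ± 0.053 (limma adjusted p = 0.0204), and animal 1 had the smallest gap at 0.064.

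CDH19, a type II cadherin known from glia of peripheral nerve, changed more than any other member. It read 6.94, 6.47, 6.88, 6.75 and 6.42 in VFC of animals 1 to 5, against 7.63, 7.78, 7.25, 7.92 and 7.29 in M1C. Every VFC value was below every M1C value, and the log2 difference was -0.88 ± 0.11 (1.84-fold lower, limma adjusted p = 0.00148). On the array labelled M1C left of animal 3 CDH19 read 6.68, while M1C right of that animal read 7.81, and without the 2 arrays the difference was -0.99 ± 0.087. CDH20, also type II, read 8.99, 8.93, 9.21, 9.26 and 8.95 in VFC, against 9.23, 9.42, 9.24, 9.37 and 9.21 in M1C. It was lower in VFC in 5 of 5 animals, with a difference of -0.23 ± 0.058 (limma adjusted p = 0.0268), with overlapping values.

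**Figure D2:**
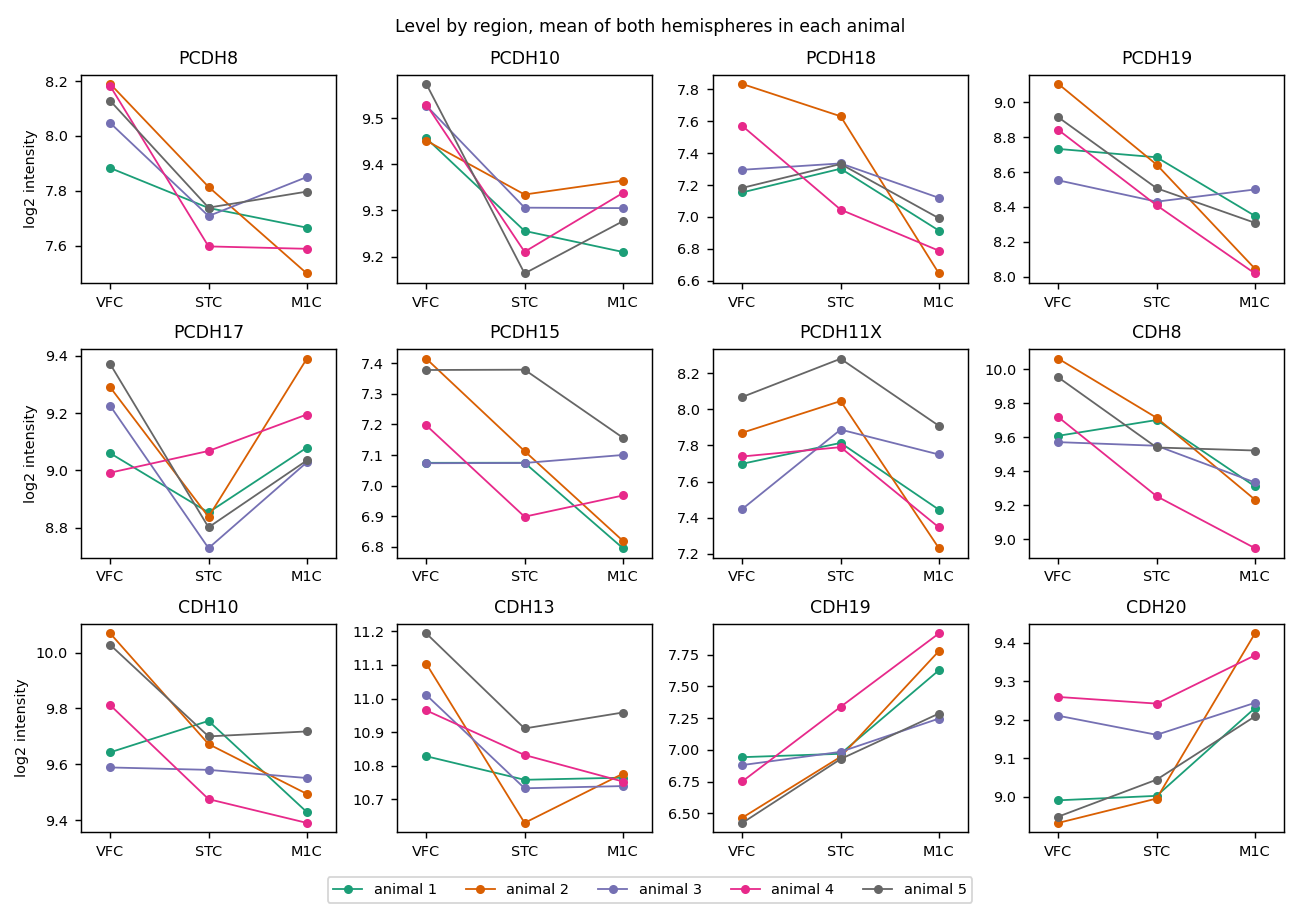
Log2 intensity of 12 members in VFC, STC and M1C, each line 1 animal and each point the mean of its 2 hemispheres. In PCDH8 and PCDH10 the VFC points stand above those of both other regions, PCDH17 dips in STC in 4 of 5 animals, and CDH19 climbs from VFC through STC to M1C in every animal.

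Oligodendrocyte markers moved with the same regions. Of 8 markers 7 had a named probe set, and 7 of 7 were lower in VFC than in M1C, with a median difference of -1.12. Without the 2 doubtful arrays this median was -1.24. In STC minus M1C, 1 of 7 passed as lower with all arrays and 6 without the 2 doubtful arrays. Of all tested genes, 2.61 and 14.9 percent passed there. The log2 of the markers' summed signal averaged 12.73 in VFC (range 11.83 to 13.31 over 10 arrays), 13.21 in STC (12.67 to 13.83) and 13.61 in M1C (13.04 to 13.92). The STC and M1C ranges include the doubtful arrays. CNDP1 had the largest VFC minus M1C difference of the list, -1.66 ± 0.19 (limma adjusted p = 0.00118), and MBP, the myelin basic protein gene, the smallest, -0.68 ± 0.16 (limma adjusted p = 0.0183). On the same scale of summed signal, SYT2, VAMP1 and SPP1, the 3 measured markers listed for large-axon neurons, came to 10.49 in VFC and 11.77 in M1C. NEFH and NEFM of that list had no named probe set. The 5 markers of meninges and fibroblasts came to 10.54 in VFC and 9.99 in M1C. Of these 5, 3 passed as higher in VFC, and 2 without the 2 doubtful arrays. Of 3 measured excitatory neuron markers, 2 passed as higher in VFC, while the other was lower, at -0.12, and did not pass. The list came to 12.84 in VFC and 12.71 in M1C. Over all tested genes, 6.15 percent passed as higher and 6.85 percent as lower in VFC. The part of these cell types in the differences of CDH19, CDH20 and the members that were higher in VFC was not tested.

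The other 18 tested members did not pass in VFC minus M1C. CDH4 (R-cadherin) was higher in VFC in 5 of 5 animals, by 0.10 ± 0.046 (limma adjusted p = 0.198). CDH5, the VE-cadherin of endothelium, gave -0.033 ± 0.090 (limma adjusted p = 0.867), and the 5 measured endothelial and mural markers came, on the scale of summed signal, to 10.64 in VFC and 10.76 in M1C. CDH3 (P-cadherin) gave -0.015 ± 0.037, with an adjusted p of 0.852 by limma.

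The number of calls in VFC minus M1C depended on the animals used. With 1 animal left out, 6, 5, 10, 4 and 5 members passed without animals 1, 2, 3, 4 and 5, and 8.49, 5.1, 11.7, 6.2 and 7.04 percent of all tested genes. CDH19, CDH8, PCDH8 and PCDH19 passed in all 15 settings tried. PCDH10 passed in 12 of them, PCDH18 in 11, CDH10 in 10, CDH13 and CDH20 in 9 each, and PCDH15 in 7. Without the 2 arrays, 12 members passed, the 10 above plus CDH12 at 0.16 ± 0.045 (limma adjusted p = 0.0329) and PCDH11X at 0.28 ± 0.080 (limma adjusted p = 0.0334), while percent called over all genes was 18.3. Without 4 arrays, CDH22 was added at 0.19 ± 0.055 (limma adjusted p = 0.0401) to make 13 members, beside 18.6 percent of all genes.

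In STC minus M1C, 2 of 28 members passed, beside 2.61 percent of all tested genes. PCDH11X read 7.81, 8.05, 7.89, 7.79 and 8.28 in STC of animals 1 to 5, against 7.45, 7.23, 7.75, 7.35 and 7.91 in M1C. It was higher in STC in each animal, by 0.43 ± 0.099 (limma adjusted p = 0.0463), and the regions overlapped. CDH19 read 6.97, 6.95, 6.98, 7.34 and 6.93 in STC, against the M1C values above, and was lower in 5 of 5 animals, with a difference of -0.54 ± 0.11 (limma adjusted p = 0.0302). Its STC value in animal 4 reached into the M1C range through the doubtful array STC right, at 7.54. STC left of animal 4 read 7.14, below every M1C value. The lowest M1C value, 7.25 in animal 3, also holds a doubtful array, at 6.68. With all arrays, in 0 members did the 5 animals' STC and M1C values stay apart, beside 2.6 percent of all tested genes. This count was not repeated without the doubtful arrays. Neither gene passed when animal 1, 2, 4 or 5 was left out (0 members in each, beside 0.00874, 0.00874, 1.12 and 0.664 percent of all tested genes), and both passed without animal 3, beside 1.95 percent.

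Both doubtful arrays enter STC minus M1C, and more members passed without them: 10 of 28, while percent called over all genes was 14.9. PCDH19 was then higher in STC by 0.42 ± 0.085 (limma adjusted p = 0.00768), against 0.29 ± 0.11 with all arrays (limma adjusted p = 0.171). PCDH17 gave -0.36 ± 0.073 (limma adjusted p = 0.0078) without the 2 arrays, against -0.29 ± 0.086 with all arrays (limma adjusted p = 0.0932). PCDH18 and CDH12 were higher in STC without the 2 arrays, by 0.52 ± 0.12 and 0.24 ± 0.045, and CDH8 and CDH22 by 0.32 ± 0.087 and 0.19 ± 0.055. CDH20 gave -0.27 ± 0.052 and CDH11, a type II cadherin of mesenchyme and brain, -0.23 ± 0.053. CDH19 and PCDH11X completed the 10, at -0.69 ± 0.087 and 0.53 ± 0.080. Without 4 arrays, CDH8 and CDH22 did not pass and the other 8 did, beside 14 percent of all genes. PCDH10 and CDH13 gave -0.045 ± 0.046 (limma adjusted p = 0.652) and -0.026 ± 0.053 (limma adjusted p = 0.846) with all arrays, and passed in 0 of 15 settings.

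In VFC minus STC, 0 of 28 members passed limma's test, beside 0.306 percent of all tested genes, and 11 members and 1702 of 11443 genes had an unadjusted p under 0.05. PCDH10, with the smallest p, read 9.26, 9.33, 9.31, 9.21 and 9.16 in STC of animals 1 to 5, all below its VFC values given above. Its difference was 0.25 ± 0.046 (limma adjusted p = 0.0515). PCDH8 and CDH4, named here after their values were seen, also had no overlap between the regions, and such separation held for 1.39 percent of all tested genes. PCDH8 gave 0.37 ± 0.075 (limma adjusted p = 0.0663) and CDH4 0.22 ± 0.046 (limma adjusted p = 0.0647). CDH4 read 7.56, 7.64, 7.56, 7.49 and 7.39 in VFC, against 7.29, 7.32, 7.35, 7.28 and 7.27 in STC. CDH13 gave 0.25 ± 0.053 (limma adjusted p = 0.0766), and PCDH17 0.33 ± 0.086 (limma adjusted p = 0.12) with STC values of 8.85, 8.84, 8.73, 9.07 and 8.80. PCDH17 was lower in STC in 4 of 5 animals, with animal 4 the exception. PCDH19 gave 0.29 ± 0.11 (limma adjusted p = 0.254) and PCDH11X -0.20 ± 0.099 (limma adjusted p = 0.419).

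The array labelled STC right of animal 4 also bears on VFC minus STC. On it PCDH17 read 9.28. Without the 2 arrays, 6 members passed as higher in VFC than in STC, namely CDH4, CDH11, CDH13, PCDH8, PCDH10 and PCDH17, and percent called over all genes was 0.848. PCDH17 then gave 0.37 ± 0.073 (limma adjusted p = 0.0431) and CDH11 0.30 ± 0.053 (limma adjusted p = 0.0316). Without 4 arrays CDH4 did not pass (limma adjusted p = 0.0651) and the other 5 did, beside 1.51 percent of all genes. VFC right, STC left and STC right of animal 1, which were not nearest to their labelled regions, also enter this comparison. Without animal 1, with the other animals' arrays all kept, 0 members passed, beside 0.472 percent of all genes. With all arrays 0 passed as well, and animal 1 and the 2 doubtful arrays were not left out together. Whether the 6 calls depend on animal 1 was therefore not tested.

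The members differed in which region stood apart, as a description of the region means. Of 28 tested members, 15 had their highest mean in VFC, 9 in M1C and 4 in STC. Of the 15, 10 were lowest in M1C and 5 in STC. PCDH8, PCDH10 and CDH13 had STC means near those in M1C, with STC minus M1C at 0.039 ± 0.075, -0.045 ± 0.046 and -0.026 ± 0.053, and VFC above both. In PCDH18 and CDH20 the STC mean lay near VFC, with VFC minus STC at 0.078 ± 0.13 and -0.021 ± 0.058. PCDH19, CDH8, CDH10 and CDH19 had STC between the other regions, and PCDH17 and CDH11 were lowest in STC.

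Members that lie close together in the rhesus genome were set side by side. Gene order was taken from a reference gene table of another assembly, so no coordinates are given. CDH8 and CDH11 have no protein-coding gene between them, yet in VFC minus M1C CDH8 gave 0.51 ± 0.091 and CDH11 0.083 ± 0.056 (limma adjusted p = 0.403). CDH19 and CDH7 have 2 genes between them, and CDH7 gave -0.19 ± 0.089 (limma adjusted p = 0.222) beside the -0.88 of CDH19. PCDH10 and PCDH18 also have 2 genes between them, and both were higher in VFC. PCDH8 and PCDH17 have 2 genes between them as well, and PCDH8 alone passed. In the group of CDH18, CDH12 and CDH10, with 2 genes and 1 gene between them, CDH10 passed and CDH12 and CDH18 gave 0.12 ± 0.065 and 0.16 ± 0.064. The difference between the members of such pairs was not tested.

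PCDHB3, PCDHB11 and PCDHB2, 3 of the 4 tested clustered protocadherins, varied more with the animal than with the region. Shares are of the sum of squares over the 30 arrays. Animal took a median of 48.3 percent in the 4 tested clustered genes, all of PCDHB, and region 2.33 percent. In PCDHB8 animal took 14.8 percent and region 11.4 percent. There are 5 animals and 3 regions, so on average animal takes the larger share in a gene that varies with neither. Among probe sets with several symbols, which are not members, one of PCDHB16 and LOC701213 had 21.0 and 15.2 percent for animal and region. One of PCDHAC1, PCDHAC2 and PCDHA5 had 5.66 and 20.6 percent. Non-clustered protocadherins had medians of 7.18 percent for animal and 39.5 percent for region, cadherins 18.9 and 21.6 percent, and all tested genes 24.1 and 10.2 percent. PCDH10 had the highest region share of the members, 66.6 percent, and PCDHB3 the highest animal share, 61.6 percent. Without the 2 doubtful arrays, an alternative added after the data were seen, the medians for animal and region were 66.7 and 3.57 percent in clustered, 6.73 and 52.9 percent in non-clustered protocadherins, 20.6 and 37.8 percent in cadherins, and 26.3 and 12.3 percent over all genes. PCDHB2 then had an animal share of 68.5 percent, against 39.8 percent with all arrays. The 2 arrays were picked because they did not resemble their labelled animal over the tested probe sets, PCDHB2 among them. Leaving them out can therefore raise animal shares by the choice itself. No test was made of these shares, and 4 genes from 1 cluster are not independent of each other.

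**Figure D3:**
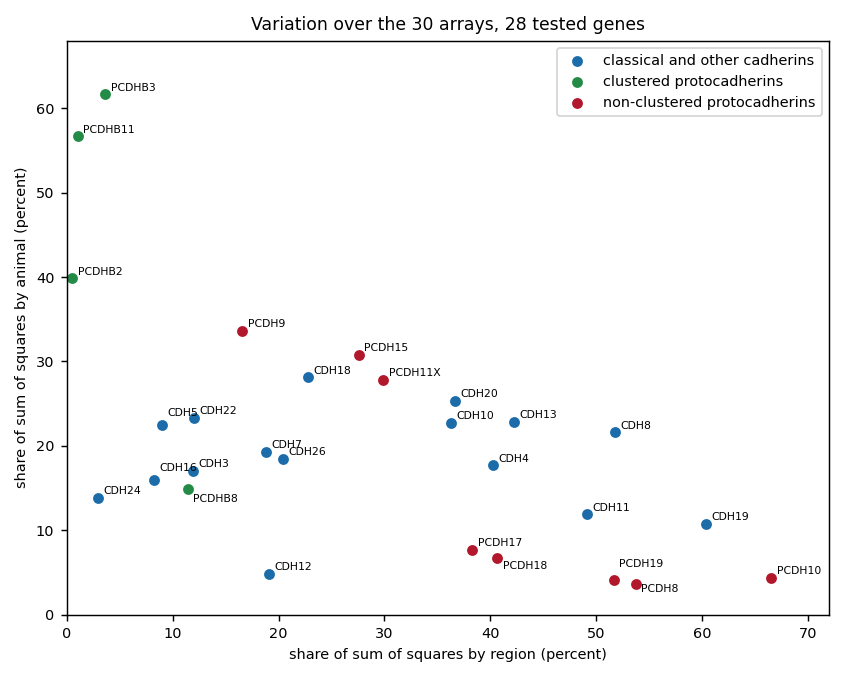
Share of the sum of squares over 30 arrays taken by animal (vertical axis) and by region (horizontal axis), in percent, for each of the 28 tested genes, coloured by family. PCDHB3, PCDHB11 and PCDHB2 lie at the upper left with region shares of 3.6, 1.0 and 0.51 percent, and the delta-2 protocadherins lie at the lower right.

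PCDHB3 averaged 7.60, 7.04, 6.95, 7.23 and 7.42 over the 6 arrays of animals 1 to 5. All 6 arrays of animal 1 (7.49 to 7.79) lay above all 6 of animal 2 (6.87 to 7.27). PCDHB11 had another order of animals, with means of 7.77, 8.09, 7.91, 8.16 and 7.77. Its arrays of animals 1 (7.64 to 7.88) and 5 (7.65 to 7.91) lay below those of animal 2 (7.94 to 8.22) without overlap. PCDHB2 averaged 7.31, 7.03, 6.73, 7.22 and 7.21, lowest in animal 3. PCDHB8 was more even, with animal means between 7.12 and 7.30 and an animal share of 14.8 percent. PCDHAC2, which was below the limit for testing, averaged 4.63 in animal 2 and between 5.34 and 5.61 in the others, and its 6 arrays of animal 2 (4.22 to 5.01) lay almost wholly below the rest. Since each animal is 1 individual of 1 age and sex, these levels are given as a description.

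The 2 doubtful arrays also stood out in PCDHB2. On the array labelled M1C left of animal 3 it read 7.36, while the other arrays of animal 3 spanned 6.39 to 7.01. On the array labelled STC right of animal 4 it read 6.54, while the others of animal 4 spanned 6.99 to 7.66. Without these arrays the PCDHB2 mean was 6.61 in animal 3 and 7.35 in animal 4, and the ranges of their arrays overlapped only between 6.99 and 7.01.

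**Figure D4:**
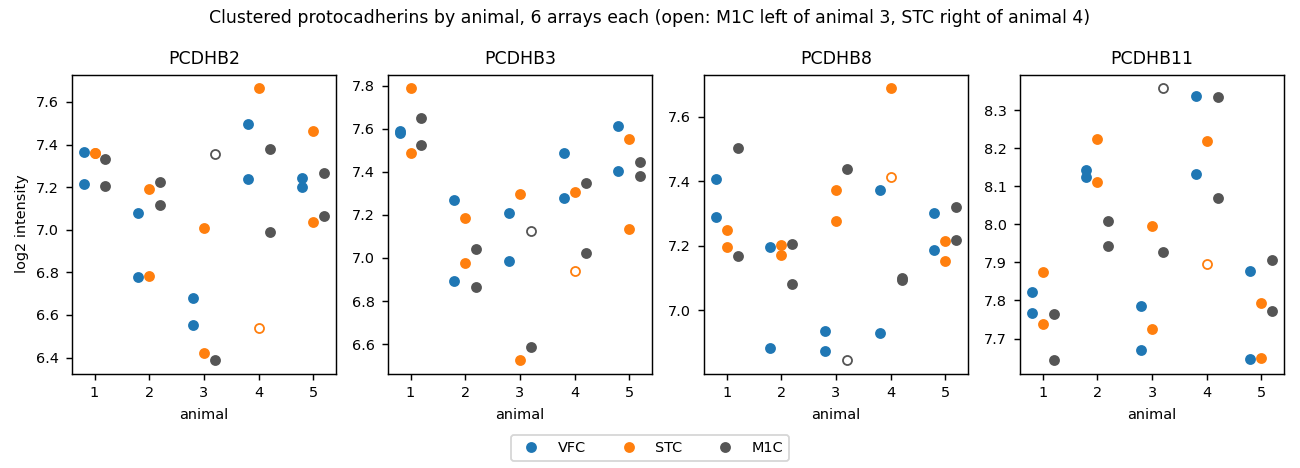
Log2 intensity of the 4 tested clustered protocadherins on the 6 arrays of each animal, coloured by region; open points are the arrays labelled M1C left of animal 3 and STC right of animal 4. In PCDHB2 both open points lie away from the other arrays of the labelled animal.

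Left and right hemispheres were compared within animals. Over all regions 0 of 28 members passed limma's test, as did 0 percent of all tested genes, and 6 members and 660 of 11443 genes had an unadjusted p under 0.05. The smallest p belonged to PCDHB2, with left minus right differences of -0.00665, 0.27, 0.17, 0.16 and 0.064 in animals 1 to 5 and a mean of 0.13 ± 0.045 (limma adjusted p = 0.682). Without the 2 arrays the PCDHB2 difference turned to -0.045 ± 0.081. CDH24, a type II cadherin, was higher on the left in 5 of 5 animals, with a difference of 0.12 ± 0.046 (limma adjusted p = 0.715), and gave 0.11 ± 0.050 without the 2 arrays. PCDH11X differences were -0.059, 0.017, 0.19, 0.32 and 0.36, with a mean of 0.17 ± 0.064 (limma adjusted p = 0.719). PCDH18 gave 0.11 ± 0.043 (limma adjusted p = 0.734) and PCDHB3 0.10 ± 0.042 (limma adjusted p = 0.735), which were 0.030 and 0.018 without the 2 arrays.

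Of the genes reported by choice rather than by p, PCDH19 gave 0.12 ± 0.056 (limma adjusted p = 0.757) with all arrays and 0.011 ± 0.080 without the 2 arrays. CDH13, PCDH10 and PCDH17 gave left minus right means of -0.0055, -0.0042 and 0.0039, each smaller than its error. The median over the 28 members was 0.0054, against 0.00025 over all tested genes.

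**Figure D5:**
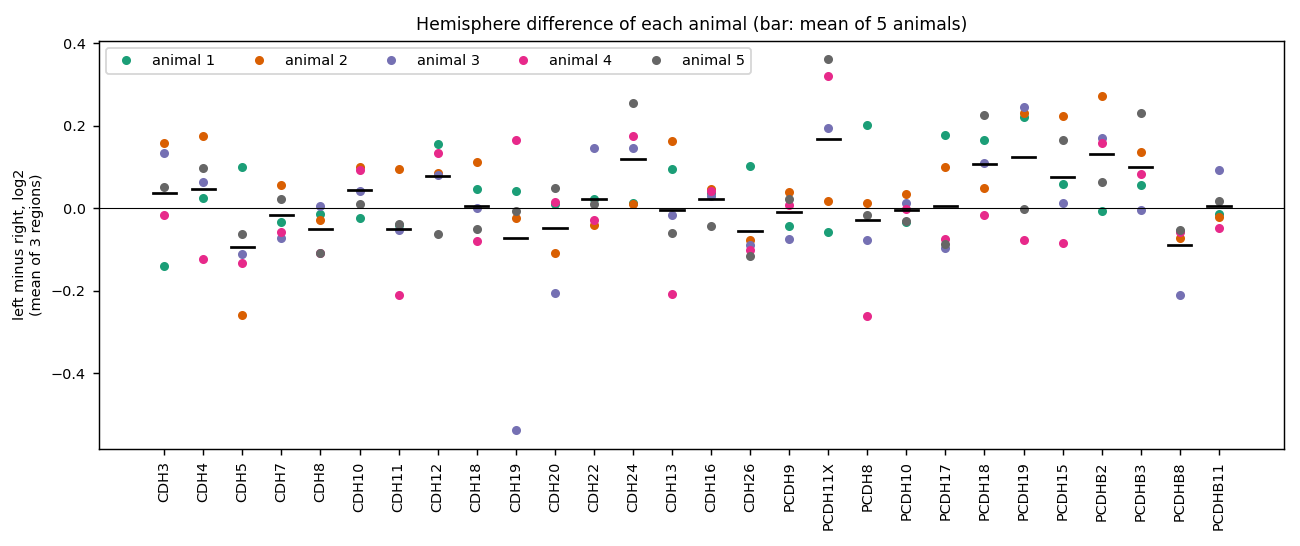
Left minus right log2 difference of each animal, averaged over the 3 regions, for the 28 tested genes; bars are means of 5 animals. The animals straddle 0 for most genes, and the widest single value is that of CDH19 in animal 3, whose left M1C array is 1 of the 2 doubtful arrays.

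Within single regions 0 of 28 members passed in VFC, STC or M1C, as did 0 percent of all tested genes. At an unadjusted p under 0.05 there were 0 members in VFC, 0 in STC and 3 in M1C, and 327, 541 and 577 of all genes. In M1C, CDH24 read 7.30, 7.31, 7.56, 7.51 and 7.45 on the left of animals 1 to 5, against 7.18, 7.35, 7.24, 7.19 and 7.07 on the right. The left was higher in 4 of 5 animals, by 0.22 ± 0.070 (limma adjusted p = 0.80). PCDH11X read 7.42, 7.20, 8.01, 7.49 and 8.28 on the left of M1C, against 7.47, 7.27, 7.49, 7.21 and 7.54 on the right, a difference of 0.28 ± 0.12 (limma adjusted p = 0.87) that came from animals 3, 4 and 5. PCDH19 gave 0.28 ± 0.12 (limma adjusted p = 0.87) in M1C, and in animal 3 it read 8.92 on the left, a doubtful array, against 8.08 on the right. Without the 2 doubtful arrays PCDH19 gave 0.13 ± 0.11, PCDH11X 0.22 ± 0.12 and CDH24 0.20 ± 0.081 in M1C. In VFC the smallest p belonged to CDH26, CDH11 and CDH8, at -0.12 ± 0.067, -0.12 ± 0.072 and -0.12 ± 0.074. In STC it belonged to CDH5, PCDH15 and CDH16, a kidney cadherin, at -0.19 ± 0.096, 0.14 ± 0.074 and 0.11 ± 0.068. Without the 2 doubtful arrays CDH5 gave -0.12 ± 0.098 in STC, PCDH15 0.16 ± 0.086 and CDH16 0.075 ± 0.074.

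Whether hemisphere differences varied by region was tested with the interaction. No member passed (0 of 28, and 0 percent of all genes), and 0 members and 373 of all genes had an unadjusted p under 0.05 in limma's moderated F test. CDH16, CDH19 and CDH18 had the largest F, at 2.94, 1.97 and 1.79, each with an adjusted p of 0.995. This order changed with the arrays. Without the 2 doubtful arrays the largest F were those of CDH16, CDH26 and CDH7, at 3.26, 2.80 and 2.42, with CDH19 at 1.38 and CDH18 at 1.30. Without 4 arrays they were those of PCDHB3, CDH8 and CDH7, at 8.62, 4.08 and 3.38, with CDH19 at 0.23 and CDH18 at 0.73. No member passed in either setting.

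Genes that work with cadherins were followed in VFC minus M1C as 4 lists. Of 12 catenins and related junction genes 9 were tested, and 2 passed as lower in VFC, beside 6.85 percent lower and 6.15 percent higher of all tested genes. These were CTNNA3, the alpha-T-catenin known from heart muscle junctions, at -0.74 ± 0.14 (limma adjusted p = 0.00609), and JUP (plakoglobin) at -0.23 ± 0.064 (limma adjusted p = 0.0375). CTNNB1, beta-catenin, which carries the link from classical cadherins to actin, gave 0.18 ± 0.064 (limma adjusted p = 0.0945), and PKP4 gave 0.088 ± 0.049 (limma adjusted p = 0.298). The median of the 9 was 0.041. Without the 2 doubtful arrays CTNNB1 passed as higher in VFC, at 0.21 ± 0.057 (limma adjusted p = 0.0278), and it passed without 4 arrays too, so that 1 was higher and 2 lower.

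Of 25 other genes of the cadherin superfamily 12 were tested, and DCHS2, a large dachsous cadherin, passed as higher in VFC at 0.40 ± 0.064 (limma adjusted p = 0.0038). FAT4 and DCHS1, which bind each other across cells, gave 0.22 ± 0.084 (limma adjusted p = 0.134) and -0.13 ± 0.062 (limma adjusted p = 0.24). CELSR3, an axon guidance cadherin, gave 0.14 ± 0.069 (limma adjusted p = 0.244). Of 19 protocadherin partners and regulators of the clustered genes 15 were tested, beside 6.15 percent passing as higher over all tested genes. With all arrays only WIZ, a zinc finger protein, passed, as higher at 0.18 ± 0.048 (limma adjusted p = 0.0351). The next were PTK2 (focal adhesion kinase), ABI2 (of the WAVE complex) and TAOK2 (a kinase that binds PCDH8 in rat), at 0.17 ± 0.051, 0.18 ± 0.055 and 0.15 ± 0.046, with adjusted p-values from limma of 0.0514, 0.0534 and 0.0583. All 3 passed as higher without the 2 doubtful arrays, with adjusted p-values from limma of 0.0408, 0.00727 and 0.0353, and also without 4 arrays, which makes 4 of 15 with WIZ, beside 18.3 and 18.6 percent of all genes. DCHS2 stayed the only gene of its list that passed in both settings. Of 11 genes for cadherin processing 5 were tested and 0 passed, with APH1A, ADAM9, NCSTN and ADAM10 between -0.060 and 0.037. With all arrays, 0 genes of these 4 lists passed in STC minus M1C or in VFC minus STC. Of all tested genes, 2.61 and 0.306 percent passed there. Without the 2 doubtful arrays 3 passed in STC minus M1C, beside 14.9 percent of all genes. These were CTNNA3 at -0.57 ± 0.11 (limma adjusted p = 0.00654), CTNNB1 at 0.23 ± 0.057 (limma adjusted p = 0.0211) and ABI2 at 0.22 ± 0.045 (limma adjusted p = 0.00873). The same 3 passed without 4 arrays, beside 14 percent of all genes. In VFC minus STC 0 passed without 2 or 4 arrays, beside 0.848 and 1.51 percent of all genes.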

How the data were processed

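The values used are the deposited log2 intensities of 40489 probe sets on 30 arrays, which the authors made with RMA in the oligo package, per the submitters' processing notes. The array's genome build is not given in the sources used here. Gene symbols came from the platform annotation. Region comparisons averaged both hemispheres within each animal, with animal as block. Hemisphere comparisons used left minus right within animals, with region means or their average. The fits used limma 3.58.1 in R 4.3.3 (with data.table, version 1.17.8) on 24292 probe sets above the 40th percentile, with two-sided tests, Benjamini-Hochberg adjustment over all of them and a threshold of 0.05. Errors with log2 differences are moderated standard errors. Array precision is limited by the number of animals. Pairing comes from the sample titles, which name the individual; the median correlation of deviations over 75 pairs of arrays of 1 animal was 0.32.

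Named genes are every member that passed a region comparison, the members with the smallest p in the hemisphere comparisons (5 over all regions, 3 in each region and 3 for the interaction), CDH13, PCDH10, PCDH11X, PCDH17 and PCDH19, members below the filter, and up to 4 genes of each associated list. Other members given were chosen after their values were seen. The members and lists were chosen with earlier results of these data known. The fits were tested on simulated data. Alternatives changed the filter, the arrays, the normalization, the variance model, the block and the animals used. Shares of the sum of squares came from a linear model of animal, region, hemisphere and region by hemisphere, entered in that order.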

Additional observations from a re-analysis of the deposited data

How the results depend on the processing

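All counts of members past the threshold in the hemisphere comparisons and the interaction were 0 in each setting tried. In VFC minus M1C, 10 passed, beside 13 percent of all tested genes. With no filter on dim probe sets 6 did, and 6 with no replicate block (animals not paired). With 1 animal left out 4 to 10 did, beside 5.1 to 11.7 percent of all tested genes. In STC minus M1C, 2 passed, beside 2.61 percent of all tested genes. With no filter 0 did, 0 with no replicate block, and 1 with each array centred on its median. Without 2 and 4 arrays 10 and 8 did, beside 14.9 and 14 percent. With 1 animal left out 0 to 2 did, beside 0.00874 to 1.95 percent. In VFC minus STC, 0 passed, beside 0.306 percent of all tested genes. With a filter at the 50th percentile 1 did, 1 after centring, and 4 with a mean-variance trend and robust fit. Without 2 and 4 arrays 6 and 5 did, beside 0.848 and 1.51 percent. The share of all genes is not given here for changes of filter, block, centring or variance model. Those counts are therefore no result about the members. With fewer animals the test has fewer samples, and with no filter it has more probe sets to adjust over. The cause of the changes in these counts was not tested. Changes of sign were in values near 0 or in PCDHB2. Without 2 arrays, left minus right over all regions was -0.045 for PCDHB2 and 0.0026 for CDH13; without 4 arrays it was 0.022 for PCDH10, and after centring -0.00016 for PCDH17. With 1 animal left out it spanned -0.047 to 0.045 for CDH13, -0.014 to 0.0033 for PCDH10 and -0.039 to 0.029 for PCDH17, while CDH13 in STC minus M1C spanned -0.052 to 0.0046 and PCDH17 in VFC minus M1C -0.031 to 0.10.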

Other observations

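A probe set that names both PCDH1 and PCDH12 was left out of the members because it has more than 1 symbol. It averaged 8.96 and was higher in VFC than in M1C by 0.19 ± 0.053 (limma adjusted p = 0.0409). One that names PCDHAC1, PCDHAC2 and PCDHA5 gave 0.13 ± 0.065 (limma adjusted p = 0.265), and animal took 5.66 percent of its sum of squares and region 20.6 percent. One that names PCDHB16 and LOC701213 gave 0.20 ± 0.058 in STC minus M1C (limma adjusted p = 0.087). The second probe set of PCDH15 averaged 5.63 and was not tested.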
